A study of Mus musculus with 4 samples.

Results

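The suppressors of cytokine signalling, Cish and Socs1 to Socs7, were examined together with Pias3 in white fat from under the skin of mice (subcutaneous white adipose tissue). The rows of the deposited gene table were chosen by gene name, which gave 9 genes of 51912, and all 9 had enough counts to be tested. The tissue came from C57BL/6 mice aged 8 weeks, treated with BML-260, which is known to inhibit the phosphatase DUSP22, or with DMSO as vehicle. RNA sequencing gave 2 BML-260 libraries and 2 vehicle libraries, labelled A and B, while the series speaks of 8 mice, 4 per treatment. How mice map onto libraries, and the dose, route and length of treatment, are not stated in the sources used. The p-values below therefore rest on the spread between libraries alone, and that spread may be technical.

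SOCS proteins are brakes on cytokine and hormone receptors. A cytokine activates Janus kinases at its receptor, these phosphorylate STAT transcription factors, and STATs switch on SOCS genes. The SOCS protein then binds phosphorylated tyrosines through its SH2 domain and, through its SOCS box, brings in a ubiquitin ligase built on elongins B and C and cullin 5, so that transcript levels of Cish, Socs1, Socs2 and Socs3 are widely used as readouts of recent STAT signalling. In fat, Cish and Socs2 are known to respond to growth hormone through STAT5, and Socs3 to leptin and interleukin-6 type cytokines through STAT3. Pias3 belongs to another family, the protein inhibitors of activated STAT, and binds STAT3 directly.

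Total expected counts lay between 19999836 and 23726781 per library. Adipocyte genes were abundant in every library, with the adiponectin gene Adipoq at 1662 CPM in BML-260 A, 2193 CPM in BML-260 B, 3022 CPM in vehicle A and 2744 CPM in vehicle B, where CPM is the read count scaled to library size with TMM factors. Libraries also stood apart in other tissue content. The 12 skeletal muscle markers summed to 27557 CPM in BML-260 A and 42604 CPM in BML-260 B, and to 371 and 9648 CPM in vehicle A and B. The 8 B cell markers summed to 182 CPM in BML-260 A, against 3.14 CPM in BML-260 B and 1.80 and 2.77 CPM in the vehicle libraries. The 12 T and NK cell markers summed to 150 CPM in BML-260 A and 20.3 CPM in BML-260 B, against 12.9 and 32.2 CPM in vehicle A and B. The sum of macrophage markers was also highest in BML-260 A, at 2673 CPM. It was 1421 CPM in BML-260 B and 1912 and 2207 CPM in vehicle A and B.

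Cish, the founding member of the family and an inhibitor of STAT5 signalling, was lower in both BML-260 libraries. It stood at 32.4 CPM in BML-260 A and 39.2 CPM in BML-260 B, against 61.9 and 64.8 CPM in vehicle A and B. The groups were far apart, with the higher BML-260 library still at 0.632 times the lower vehicle library. Within groups, the BML-260 libraries differed by a ratio of 1.21 and the vehicle libraries by a ratio of 1.05. The reads behind these levels were 673 and 860 with BML-260 and 1305 and 1499 with vehicle, and the exact 95% Poisson intervals of the levels, which cover counting error only, were 30.0 to 35.0 and 36.6 to 41.9 CPM with BML-260, against 58.6 to 65.4 and 61.5 to 68.2 CPM with vehicle. The mean was 35.8 ± 4.79 CPM with BML-260 and 63.4 ± 2.01 CPM with vehicle (SD, n = 2 each), a fold of 0.565 (95% confidence interval 0.443 to 0.721). In bulk tissue, fewer cells that express a gene and less RNA per cell cannot be told apart.

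**Figure D1:**
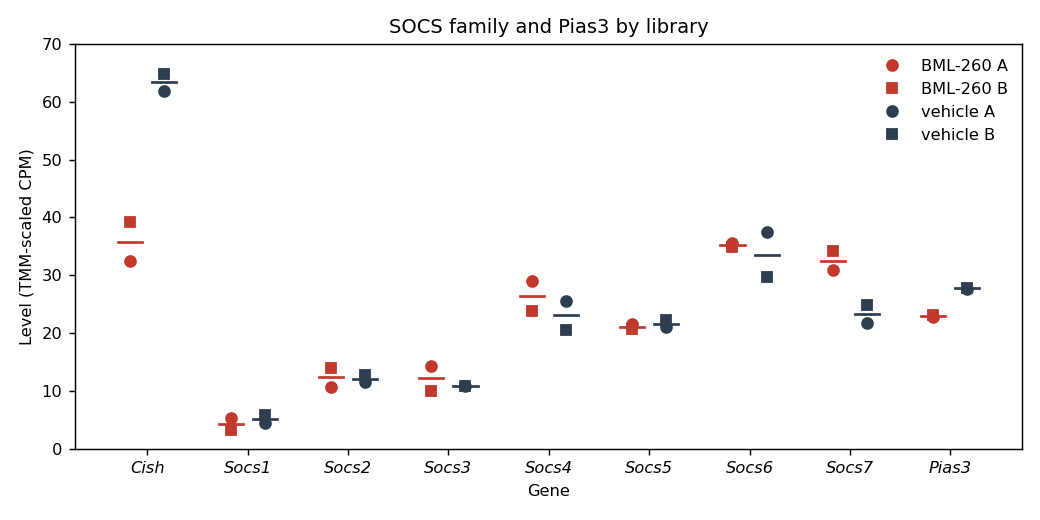
Levels of the 9 genes in each library (TMM-scaled CPM on a linear axis from 0), with BML-260 in red to the left of vehicle in dark blue, circles for library A, squares for library B and a line at each group mean. Cish at 32.4 and 39.2 CPM lies well below its vehicle libraries at 61.9 and 64.8 CPM, while most other members overlap between groups.

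Across all 15643 tested genes, edgeR's quasi-likelihood test gave Cish a log2 fold change of -0.82 (SE 0.14, unadjusted p = 0.00163), which did not pass after Benjamini-Hochberg adjustment (adjusted p = 0.285 by edgeR). That test called 0 of the 9 genes, and 0.00639% of all tested genes. Cish ranked 87 of 15643 by its p, and 15 among genes with a negative fold change. DESeq2 called Cish lower (log2 fold change -0.83, SE 0.19, DESeq2 adjusted p = 0.00163) and none of the other 8, where it called 0.519% of all genes lower and 2.17% higher. The authors' deposited table gives Cish a log2 fold change of -0.77 with an adjusted p of 0.00238. Over all 51912 rows of the authors' deposited table, untested genes included, 0.133% had an adjusted p under 0.05 and a lower value. The authors' deposited table does not mark Cish as significant, and the 176 rows it does mark all have an absolute log2 fold change of at least 1.01. The direction of Cish was the same under all 14 other ways of processing that were run, with log2 fold changes between -0.97 and -0.71, as shown in the plot of Cish by processing. Adjusted p under 0.05 came with DESeq2 and with edgeR on all genes with any count (adjusted p = 0.00995 by edgeR).

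**Figure D2:**
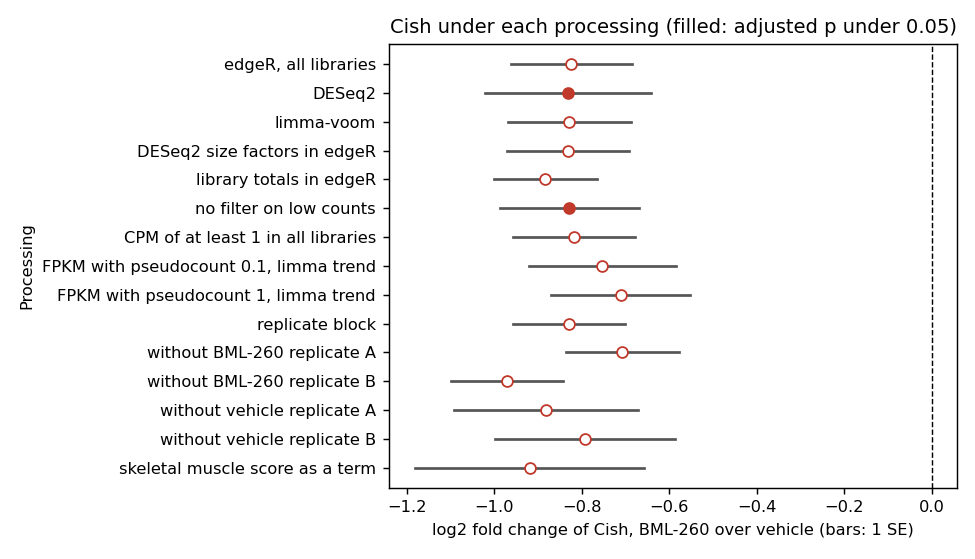
Log2 fold change of Cish, BML-260 over vehicle, under each processing (horizontal axis; bars are 1 standard error, and filled points have an adjusted p under 0.05). Every point lies below zero, between -0.97 without BML-260 B and -0.71 without BML-260 A, and only DESeq2 and the fit with no filter on low counts are filled.

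All 12 muscle markers were higher in both BML-260 libraries, and with the mean muscle marker level as a term of the model the log2 fold change of Cish was -0.92 (adjusted p = 0.9998 by edgeR), and this fit had 1 residual degree of freedom. Without BML-260 A, the library with the highest sums of B cell, T and NK cell and macrophage markers, it was -0.71. Adipocyte markers were lower in the same direction for 6 of 8 genes, with sums of 13215 and 18051 CPM in the BML-260 libraries against 19673 and 18767 CPM in vehicle A and B. Set against that sum, Cish stood at 2.45 and 2.17 CPM per 1000 CPM of adipocyte markers with BML-260, and at 3.15 and 3.45 with vehicle. Of the 6 endothelial markers, 5 were also lower in both BML-260 libraries. Among all tested genes, both BML-260 libraries lay above both vehicle libraries in 22.9% and below them in 21.5%. The part of muscle, B cell, T and NK cell, macrophage, adipocyte and endothelial content in the level of Cish was not tested.

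Socs2, which restrains growth hormone signalling, had groups that overlapped. It stood at 10.7 CPM in BML-260 A and 14.0 CPM in BML-260 B, against 11.5 and 12.8 CPM in vehicle A and B, so the BML-260 libraries lay on either side of the vehicle ones. Its log2 fold change came to 0.03 (SE 0.20, with an edgeR adjusted p of 0.968), with a 95% confidence interval for the fold of 0.716 to 1.46, and its sign turned under 6 of the 14 alternatives. The ratio of Cish to Socs2 in CPM was 3.02 and 2.79 with BML-260, against 5.39 and 5.08 with vehicle. The difference between these genes was not tested.

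Socs3, the brake on leptin and interleukin-6 signalling, stood at 14.4 CPM in BML-260 A and 9.98 CPM in BML-260 B, against 10.8 and 10.9 CPM in vehicle A and B. The vehicle libraries were almost equal and the BML-260 libraries lay above and below them, which left a log2 fold change of 0.17 (SE 0.23, with an edgeR adjusted p of 0.820). Without BML-260 A it was -0.13. The 11 early response genes summed to 365 CPM in BML-260 A and 303 CPM in BML-260 B, against 189 and 201 CPM in vehicle A and B. In 7 of the 11 both BML-260 libraries lay above both vehicle libraries, as in 22.9% of all tested genes, and the others overlapped. Of the 7, Fos stood at 12.6 CPM in BML-260 A and 5.88 CPM in BML-260 B, against 3.18 and 3.46 CPM in vehicle. The part of early response genes in the level of Socs3 was not tested.

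Socs1, a strong brake on interferon signalling, was the scarcest member in reads, with 109 and 72 in the BML-260 libraries and 95 and 136 in the vehicle libraries. It stood at 5.25 and 3.28 CPM with BML-260, against 4.51 and 5.88 CPM with vehicle, and the groups overlapped. Its log2 fold change came to -0.29 (SE 0.33, with an edgeR adjusted p of 0.782), and the interval of its fold, 0.457 to 1.47, is the widest of the 9 and holds both no difference and the fold of Cish. Without BML-260 B the log2 fold change was 0.01.

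**Figure D3:**
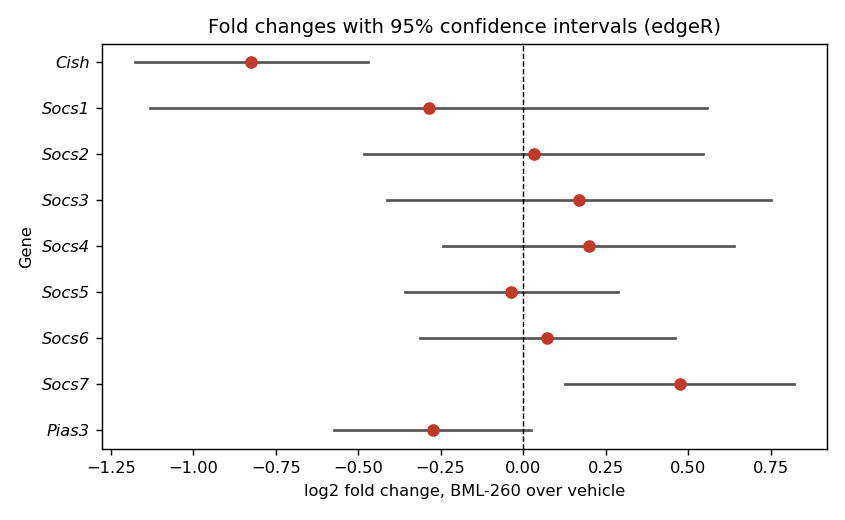
Log2 fold changes of the 9 genes, BML-260 over vehicle, with 95% confidence intervals from the edgeR fit (horizontal axis; points are estimates, the dashed line is no difference). The intervals of Cish (-1.18 to -0.47) and Socs7 (0.13 to 0.82) leave out zero, and that of Pias3 ends at 0.02.

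Among the members less tied to cytokine feedback, Socs7 lay the other way from Cish. Socs7, which binds insulin receptor substrate proteins and adaptor proteins, stood at 30.9 CPM in BML-260 A and 34.1 CPM in BML-260 B, against 21.8 and 24.9 CPM in vehicle A and B. Both BML-260 libraries lay above both vehicle libraries, with at least a ratio of 1.24 between them. The fold was 1.39 (95% confidence interval 1.09 to 1.77), with a log2 fold change of 0.47 (SE 0.14, unadjusted p = 0.0168) that did not pass after adjustment (adjusted p = 0.377 by edgeR; DESeq2 adjusted p = 0.320). Its sign was positive under all 14 alternatives, with values between 0.28 and 0.57. The lowest, 0.28 (SE 0.26), came with the mean muscle marker level as a term of the model. The part of muscle content in the level of Socs7 was not tested. Cish and Socs7 were the 2 members with an unadjusted p under 0.05, 1 lower and 1 higher, and 11.1% of all tested genes reached that p (3.61% lower and 7.45% higher).

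Socs4 and Socs5, which are known for restraining the epidermal growth factor receptor, did not differ beyond the spread of libraries. Socs4 stood at 29.0 and 23.9 CPM with BML-260, against 25.5 and 20.6 CPM with vehicle, a log2 fold change of 0.20 (SE 0.17, with an edgeR adjusted p of 0.703). Socs5 was the steadiest member, at 21.5 and 20.7 CPM with BML-260 and 21.0 and 22.3 CPM with vehicle. Its log2 fold change came to -0.04 (SE 0.13, with an edgeR adjusted p of 0.935), and the 95% confidence interval of its fold ran from 0.780 to 1.22. Socs6, which binds insulin receptor signalling proteins and the receptor KIT, stood at 35.6 and 34.9 CPM with BML-260, inside the span of the vehicle libraries at 37.4 and 29.6 CPM. Its log2 fold change came to 0.07 (SE 0.15, with an edgeR adjusted p of 0.887).

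Pias3 was slightly lower in both BML-260 libraries, at 22.8 and 23.1 CPM, against 27.7 and 27.8 CPM in the vehicle libraries. Replicates were nearly equal in each group, with ratios of B to A of 1.01 in both, but counting error alone gave 95% intervals of 20.8 to 25.0 and 21.1 to 25.1 CPM with BML-260 and 25.5 to 30.0 and 25.7 to 30.1 CPM with vehicle. The log2 fold change was -0.27 (SE 0.12, unadjusted p = 0.0641, adjusted p = 0.472 by edgeR), and it was negative under all 14 alternatives. The other PIAS genes overlapped between groups, with Pias1 at 0.05 (SE 0.13), Pias2 at 0.21 (SE 0.15) and Pias4 at -0.03 (SE 0.16) on the log2 fold change scale, and their difference from Pias3 was not tested. The groups did not overlap for Cish, Socs7 and Pias3, 1 gene higher and 2 lower of 9, and in 44.3% of all tested genes (22.9% higher and 21.5% lower), a larger share than in the family.

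The 9 genes were ranked by level as deposited FPKM, which allows for transcript length. Cish was the highest member in vehicle, at 19.7 and 20.9 FPKM in vehicle A and B, above Pias3 at 14.8 and 13.1 FPKM and Socs6 at 11.3 and 9.21 FPKM, and these 3 genes did not overlap. With BML-260 Cish still had the highest mean, 12.1 FPKM against 11.6 FPKM for Pias3, but its libraries at 10.7 and 13.5 FPKM overlapped those of Pias3 at 11.4 and 11.8 FPKM and of Socs6 at 11.2 and 10.6 FPKM. Socs2 came next, at 6.36 and 8.09 FPKM with BML-260 and 7.16 and 8.44 FPKM with vehicle. The other 5 members lay between 3.12 and 6.65 FPKM over the 4 libraries, and in the order of their means, Socs3, Socs1, Socs5, Socs7 and Socs4, each overlapped its neighbour when all 4 libraries were taken. Socs2 overlapped Socs3 in the same way. All 9 were of middle abundance, from the percentile 34.5 (Socs4) to 68.5 (Cish) of tested genes by mean FPKM.

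**Figure D4:**
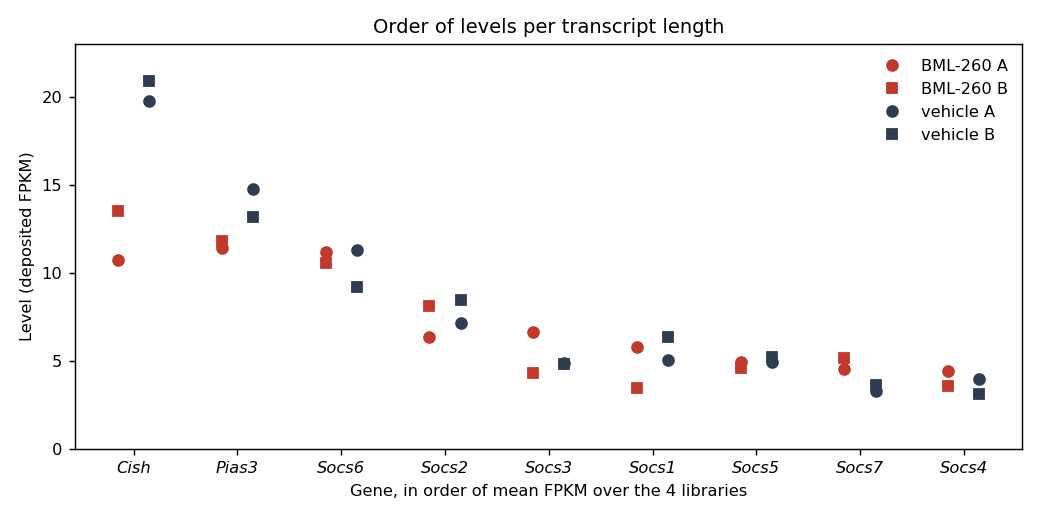
Deposited FPKM of the 9 genes in each library, in order of their mean over the 4 libraries (linear axis from 0; BML-260 in red to the left of vehicle in dark blue, circles for A and squares for B). Cish is alone at the top in vehicle, at 19.7 and 20.9 FPKM, and overlaps Pias3 and Socs6 in BML-260, at 10.7 and 13.5 FPKM.

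Taken as a sum, the 9 genes came to 203 CPM in each BML-260 library, against 222 and 220 CPM in vehicle A and B. Cish made up 16.0% and 19.3% of that sum with BML-260 and 27.9% and 29.5% with vehicle. CPM does not allow for transcript length, so these shares, like the ratio of Cish to Socs2, compare libraries and do not rank genes. The median log2 fold change of the 9 genes was 0.03, with 5 of 9 above zero, beside a median of 0.02 over all tested genes.

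On GRCm38, with GENCODE vM21 annotation, all 9 are protein-coding genes on separate loci. Cish (ENSMUSG00000032578) spans bases 107296026 to 107302784 of chromosome 9 on the plus strand, Socs7 (ENSMUSG00000038485) bases 97362551 to 97398542 of chromosome 11 on the plus strand, and Pias3 (ENSMUSG00000028101) bases 96696384 to 96706070 of chromosome 3, also on the plus strand. Socs1 (ENSMUSG00000038037) is on chromosome 16 at 10782240 to 10785536, Socs2 (ENSMUSG00000020027) on chromosome 10 at 95385362 to 95417180 and Socs3 (ENSMUSG00000053113) on chromosome 11 at 117966079 to 117970047, all on the minus strand. Exons of Cish overlap 2 genes on the opposite strand, the pseudogene Gm17040 with 6, 6, 6 and 14 reads in BML-260 A, BML-260 B, vehicle A and vehicle B, and the antisense gene Gm17041 with 0 in each. The strand setting of the counting is not stated, so reads of these partners cannot be told from those of Cish, but the numbers assigned to them are small beside the 673 to 1499 of Cish.

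RefSeq promoter windows were held for 5 of the 9 members, and the STAT motif TTCNNNGAA, which reads the same on both strands, was searched in the 250 bases before the start. It was found in Socs3 alone of those 5, and in 7.02% of 32851 such windows. The Socs3 site is shown because Socs3 is a textbook STAT target in this family, and it lies 154 to 146 bases before the start, within chr11:117969502-117969530 of GRCm38.p6 on the minus strand, with the motif in capitals and 10 bases on each side. GENCODE starts the Socs3 gene further upstream, so that the motif lies 527 bases after that start, in no annotated exon.
Socs3: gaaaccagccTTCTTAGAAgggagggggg
The window of Cish (chr9:107296409-107296658, plus strand) held no match, and GENCODE places it inside an annotated first exon of a longer Cish transcript. No match says only that these letters are not in this window.

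The genes that act around the SOCS proteins were read from the same fit, in 9 lists with 86 tested genes of 100 listed. edgeR called 0 of the 86 after adjustment, and with no adjustment 8 had higher and 2 had lower values at a p under 0.05, together 11.6%, against 11.1% of all tested genes. DESeq2 called 5 higher and 1 lower, beside 2.17% of all genes higher and 0.519% lower. Of the 6 ubiquitin ligase partners none reached a p under 0.05 before adjustment. For 3 (Eloc, Cul5 and Cul2) both BML-260 libraries lay above both vehicle libraries, as they did for 22.9% of all tested genes. On the log2 fold change scale Eloc stood at 0.11 (SE 0.11), Cul5 at 0.32 (SE 0.14) and Cul2 at 0.21 (SE 0.13), and Elob, which overlapped, at -0.03 (SE 0.12). Cul5, the cullin of the ligase, stood at 42.7 and 47.2 CPM with BML-260, against 39.3 and 32.6 CPM with vehicle (unadjusted p = 0.0726 by edgeR).

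**Figure D5:**
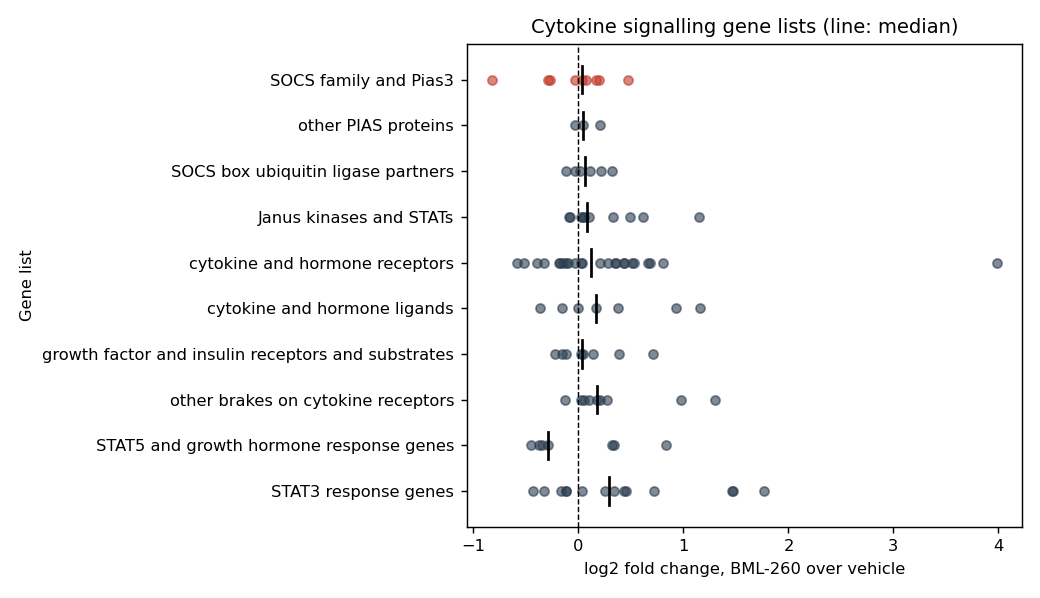
Log2 fold changes, BML-260 over vehicle, of the 9 genes (red) and of the tested genes of 9 lists around cytokine signalling (dark blue), with a vertical line at each list's median. Medians lie between -0.29 for STAT5 and growth hormone response genes and 0.29 for STAT3 response genes, and the point at 3.99 is Il7r, which is also a T cell marker.

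Of the growth hormone and STAT5 route, Stat5b, which encodes the STAT through which growth hormone mainly acts, was higher while Cish was lower. Stat5b stood at 115 CPM in BML-260 A and 131 CPM in BML-260 B, against 77.1 and 83.8 CPM in vehicle A and B, a log2 fold change of 0.62 (SE 0.13, with an edgeR adjusted p of 0.309) that DESeq2 called (DESeq2 adjusted p = 0.0135). Its relative Stat5a lay level, at 0.04 (SE 0.13). The growth hormone receptor gene Ghr stood at 721 and 855 CPM with BML-260, against 1071 and 1000 CPM with vehicle, a log2 fold change of -0.39 (SE 0.20, with an edgeR adjusted p of 0.533). Both BML-260 libraries were below both vehicle libraries for Ghr. The list of STAT5 and growth hormone response genes had 7 tested members of 10 listed, 3 of them above zero. The median log2 fold change of the 7 was -0.29. Igfals, which encodes a subunit of the complex that carries IGF1 in blood, stood at -0.46 (SE 0.19). The cyclin gene Ccnd1 stood at 0.83 (SE 0.18, DESeq2 adjusted p = 0.0219).

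For the route that Socs3 restrains, Stat3 stood at 140 and 144 CPM with BML-260 and 140 and 133 CPM with vehicle, and Il6st, the shared receptor chain of interleukin-6 type cytokines, had a log2 fold change of 0.02 (SE 0.14). The leptin receptor gene Lepr was scarce, at 5.15 and 3.01 CPM with BML-260 against 2.56 and 2.59 CPM with vehicle (log2 fold change 0.66, SE 0.36). STAT3 response genes had a median log2 fold change of 0.29 over 14 members, with 9 above zero. After adjustment edgeR called 0 of the 14. Before adjustment 2 of the 14 were higher at a p under 0.05, beside 7.45% of all tested genes. Timp1, an inhibitor of matrix metalloproteinases, stood at 12.04 and 6.10 CPM with BML-260, against 1.80 and 3.50 CPM with vehicle (log2 fold change 1.77, SE 0.48, DESeq2 adjusted p = 0.0426). Fos had 1.47 (SE 0.41), and its highest value was in BML-260 A.

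In the interferon route that Socs1 restrains, the chains of the interferon gamma receptor lay opposite ways, while those of the type I interferon receptor overlapped between groups. Ifngr1, the ligand-binding chain of the interferon gamma receptor, stood at 119 and 139 CPM with BML-260, against 191 and 178 CPM with vehicle (log2 fold change -0.52, SE 0.14, DESeq2 adjusted p = 0.0417). Ifngr2, the signalling chain, stood at 46.0 and 39.3 CPM with BML-260, against 27.6 and 25.6 CPM with vehicle (log2 fold change 0.68, SE 0.14, DESeq2 adjusted p = 0.0269). Neither passed in edgeR, with adjusted p of 0.360 for Ifngr1 and 0.292 for Ifngr2. Stat6, which carries interleukin-4 signals, had 0.10 (SE 0.16). The kinase genes Jak1 and Jak2 had 0.33 (SE 0.17) and 0.49 (SE 0.13), with Jak2 at an edgeR adjusted p of 0.359.

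Of the insulin route, on which Socs6 and Socs7 are known to act, the substrate gene Irs2 stood at 75.2 and 67.6 CPM with BML-260, against 39.5 and 47.8 CPM with vehicle, a log2 fold change of 0.71 (SE 0.14, with an edgeR adjusted p of 0.292, DESeq2 adjusted p = 0.0163). Irs1 had 0.38 (SE 0.22) and the receptor gene Insr -0.22 (SE 0.20). Cytokine ligands were mostly below the level of testing, 7 of 17 being tested, and Clcf1 and Il10 had 1.16 (SE 0.67) and 0.93 (SE 0.54). Il10 rested on few reads, 14 and 12 with BML-260 and 8 and 6 with vehicle. Clcf1 was high in BML-260 A alone, at 10.7 CPM there and 2.60 CPM in BML-260 B, against 2.71 and 3.24 CPM in vehicle A and B. Among other brakes on cytokine receptors, Ptprc and Trim24 had 1.30 (SE 0.64) and 0.27 (SE 0.14). Ptprc, which blood cells express, stood at 151 CPM in BML-260 A and 36.3 CPM in BML-260 B, against 32.2 and 43.5 CPM in vehicle. Dusp22, the target of the compound, lay level at a log2 fold change of -0.01 (SE 0.12).

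The genes whose pattern over the 4 libraries was nearest to that of Cish were Trim68, Pawr and Sult1a1, by the root mean square difference of centred log2 CPM (0.02 for Trim68, 0.03 for Pawr and 0.03 for Sult1a1). Sult1a1, a sulfotransferase gene, stood at 77.4 and 95.8 CPM with BML-260, against 157 and 156 CPM with vehicle. For Socs1 they were Zfat, Rab36 and Edn1. Within 0.1 of Cish lay 31 of 12966 genes, and with 4 libraries such likeness is only a description.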

How the data were processed

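RNA was sequenced from subcutaneous fat of mice given BML-260 or vehicle, 2 libraries each, grouped by their treatment label. The authors deposited expected counts per gene without normalization, FPKM values, group means of both, also on a log2 scale, and the result of their own comparison (log2 fold change, p-value and adjusted p-value). GRCm38.p5, RSEM 1.2.31, HISAT2 2.1.0 and DESeq2 1.10.1 appear in the submitters' processing notes, with no role. Which annotation, strand setting and filters applied is not given in the sources used here.

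Expected counts were rounded, genes with low counts removed by filterByExpr (15643 left), and tested two-sided by quasi-likelihood in edgeR 4.0.16 under R 4.3.3, with TMM scaling and no term but the group, at a Benjamini-Hochberg adjusted p of 0.05 over all tested genes. There were 2 residual and 3.28 prior degrees of freedom. Standard errors were derived from the log2 fold change and its F statistic, and intervals use the t distribution. DESeq2 1.42.0 and limma 3.58.1 were among 14 alternatives. The fits were run on simulated data, where edgeR and DESeq2 had to call most of the largest changes and give called changes the right sign. That check set no limit on false calls, no share of smaller changes to be called, and no requirement for limma. No pair of libraries of a group agreed within sampling noise, so none was treated as a duplicate (chi-square per degree of freedom 45.6 for BML-260 and 40.4 for vehicle).

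The members and lists were chosen with earlier results of these data known. Genes were named by rule: the 9 members, a set of pathway genes fixed by name, the 2 genes with the smallest p of each list, and for the 2 members with the widest range the 3 nearest genes. Adipoq and the antisense neighbours of Cish were named outside the rule, and Il7r and Bcl6 after their values were seen. A symbol on several identifiers was read from its most abundant one. One pathway gene and 1 list of response genes are not reported here.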

Additional observations from a re-analysis of the deposited data

How the results depend on the processing

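Of the 14 alternatives, none turned the direction of Cish, Socs4, Socs7 or Pias3. The main test called 1 gene higher and 0 lower over all genes, 0 of the 9 members and 0 pathway genes. DESeq2 called 327 higher and 78 lower, 1 member (Cish) and 6 pathway genes. With no filter on low counts edgeR called 565 higher and 86 lower, 1 member (Cish) and 6 pathway genes. The replicate block, with the library letter as a term, called 0 higher, as did the muscle score as a term. Same-letter libraries had a correlation of deviations of -0.06. With 2 libraries per group this is the same value for A and B, and it cannot settle whether the letters pair libraries. Cish stood at -0.83 under the replicate block (edgeR adjusted p = 0.312). Leaving out each library gave 0 (without vehicle A) to 300 (without vehicle B) genes higher, 0 to 9 lower, 0 members, and 0 to 1 pathway genes, the 1 being Bcl6 without vehicle B, where the lone library is assumed to vary like the other group. Leaving out each library also turned signs, with log2 fold changes of -0.68 to 0.010 for Socs1, -0.18 to 0.20 for Socs2, -0.13 to 0.41 for Socs3, -0.10 to 0.0033 for Socs5 and -0.088 to 0.22 for Socs6. Socs2 also turned with library totals (-0.031), with FPKM at a pseudocount of 0.1 (-0.11) or 1 (-0.10) and with the muscle term (-0.16). Fewer libraries and fewer residual degrees of freedom are part of those settings; otherwise the cause was not tested. Depth limits Socs1 most, at 72 to 136 reads per library.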
